A study of Mus musculus with 4 samples.

Results

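The EGR family comprises 4 genes, Egr1, Egr2, Egr3 and Egr4, and all 4 were among the 19465 features that the probe set targeted in these brain sections. The members were taken by their symbols, and the family was chosen with its difference between the diets in these sections already known, so that difference is given as a description. The sections came from brains of male wild-type C57BL/6J offspring at postnatal day 21, whose mothers received a diet with 2 mg/kg folic acid (MF, 2 sections) or 20 mg/kg folic acid (HF, 2 sections) from before mating until the end of lactation. Both groups therefore received folic acid, and the groups differ in the maternal dose. Each section was a coronal slice of formalin-fixed, paraffin-embedded brain from a separate biological replicate, and the litters are not given in the sources used here. In Visium-FFPE, pairs of probes bind RNA in the section and are counted as unique molecular identifiers (UMIs) in barcoded spots, each of which holds RNA from several neighbouring cells. A spot-based level cannot tell fewer cells of a type from less RNA per cell.

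EGR proteins are zinc finger transcription factors that bind GC-rich sites in promoters. Their genes are immediate early genes: in neurons, calcium entry and ERK signalling act on CREB, serum response factor and its ELK partners already present in the cell, and the EGR genes are transcribed within minutes without new protein synthesis. The NAB proteins bind EGR factors and repress them, and Nab2 is itself an EGR target. In the forebrain, Egr1 is widely used as a marker of recent synaptic activity, and Egr3 and Egr4 are induced in many of the same neurons. Egr2 is best known for its role outside the forebrain, in myelinating Schwann cells and in the hindbrain.

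In total, 13452 spots passed the limits of 500 UMIs and 250 genes, between 3197 and 3598 per section. The sections held between 34983708 and 90098381 UMIs, and MF replicate 1 was the deepest, with a median of 23543.5 UMIs per spot against 9286 to 12074.5 in the other sections. Levels are given as CPM, the UMIs of a gene per 1000000 UMIs of all features in the same spots. Spots were clustered without the members and without other immediate early genes, which gave 26 clusters, and 22 areas with at least 20 spots in every section were compared. The share of spots by region differed between sections: HF replicate 2 held 205 spots with striatal markers and 393 with hypothalamic markers, and the other sections held 111 to 149 and 521 to 627. Since the sections differed in their share of spots by region, the comparisons below are made within regions and areas. Whether the plane of the cut differed was not tested. Between 2647 and 3104 barcodes were shared by each pair of sections, since barcodes name positions on the array, not cells.

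Stretches are shown from just before 1 of the 5 listed starts of Egr2 and the 1 listed start of Egr4. Such stretches can hold the letters through which CREB and serum response factor are known to act. The Egr2 start used is the last one listed, and its stretch lies inside the gene span of 67535475 to 67542188 given below. The promoter table used here holds entries for Egr2 and Egr4, and Egr1 and Egr3 are named only. The stretches are from RefSeq on GRCm38.p6, run from 190 to 41 bases before the start, and are written in the direction of the gene. Capitals mark the core CRE letters TGACG, read on either strand, and the CArG box, which serum response factor binds.
Egr2, chr10:67537740-67537889, plus strand: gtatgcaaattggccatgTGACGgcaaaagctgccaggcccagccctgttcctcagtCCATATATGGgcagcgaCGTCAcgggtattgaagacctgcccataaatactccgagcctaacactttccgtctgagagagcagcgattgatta
Egr4, chr6:85513630-85513779, minus strand: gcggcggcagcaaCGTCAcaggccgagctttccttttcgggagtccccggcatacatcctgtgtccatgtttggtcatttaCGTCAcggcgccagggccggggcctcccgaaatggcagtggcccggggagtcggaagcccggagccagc
The Egr2 stretch holds the core CRE letters at 172 and 116 bases before the start, with the CArG box at 133. In the Egr4 stretch the core CRE letters begin at 177 and 109 bases before the start, and no CArG box was found in it. Of 32851 promoter windows of the same source, which are all of the same length and longer than the stretches shown, 20.8% hold the core CRE letters and 1.63% a CArG box. The full CRE, TGACGTCA, which contains the core letters, is in 1.79% of the windows and in none of those of Egr2 or Egr4. The EGR sites GCGTGGGCG and GCGGGGGCG, in 0.612% and 2.91% of the windows, were not found in those of Egr2 and Egr4 either. For Egr2, 5 starts are listed, of which 4 hold a CArG box and 3 the core CRE letters. These are matches of letters and not evidence of binding.

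The genes lie on 4 chromosomes of GRCm38. Egr1 (ENSMUSG00000038418) is on chromosome 18 from 34859823 to 34864984, Egr2 (ENSMUSG00000037868) on chromosome 10 from 67535475 to 67542188, Egr3 (ENSMUSG00000033730) on chromosome 14 from 70077203 to 70082614, all on the plus strand, and Egr4 (ENSMUSG00000071341) on chromosome 6 from 85511121 to 85513589 on the minus strand.

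Over whole sections, Egr1 was the member whose level varied most between the sections. The MF sections had 49.1 CPM (replicate 1, 4420 UMIs) and 58.0 CPM (replicate 2, 2460 UMIs), and the HF sections 156 CPM (replicate 1, 5460 UMIs) and 340 CPM (replicate 2, 14433 UMIs). Both HF sections were above both MF sections, as was the case for 21.8% of the 14971 genes tested over whole sections, and HF replicate 2 was well above HF replicate 1. HF replicate 2 also had more Egr1 than HF replicate 1 in each of the 5 regions given below. When each animal was handled, and how long its brain waited before fixation, is not given in the sources used here, and the part of these in the level of Egr1 was not tested.

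Egr3 differed little between the sections, with 49.2 and 43.5 CPM in the MF sections and 48.3 and 43.9 CPM in the HF sections. Egr4 had 25.2 and 24.5 CPM in MF and 35.1 and 36.5 CPM in HF, and the groups did not overlap. Egr2 was rare, with 141 and 82 UMIs in the MF sections (1.56 and 1.93 CPM) and 128 and 145 UMIs in the HF sections (3.66 and 3.41 CPM). Probes of different genes capture RNA with different efficiency, so levels are compared between sections and areas and not between members.

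The members' signals were spread over the tissue to different degrees. At least 1 Egr1 UMI was counted in 58.8% (95% Wilson interval 57.1 to 60.4) and 47.2% (45.5 to 48.9) of the spots of the MF sections, against 66.8% (65.2 to 68.5) and 88.8% (87.7 to 89.9) in the HF sections; these intervals cover counting error only. Since the sections differ in depth, each spot was also thinned to 5000 UMIs, leaving out 9 and 98 shallower spots in MF and 510 and 125 in HF. The shares were then 20.1% and 25% in MF and 49.0% and 69.8% in HF. In the medial habenula, where Egr1 was lowest, the thinned shares were 11.1% and 8.20% in MF and 25.8% and 24.2% in HF, with median depths of 39492.5, 19282, 21231.5 and 19127 UMIs per spot before thinning. In the olfactory cortex and amygdala, at the lower side of the maps, Egr1 had 46.3 and 64.1 CPM in MF, 124 CPM in HF replicate 1 and 354 CPM in HF replicate 2. In each section the tenth of spots with the most Egr1 UMIs held 33.4% to 39.3% of them, and the highest spot had 11, 9, 21 and 47 UMIs in MF replicates 1 and 2 and HF replicates 1 and 2. The higher level in the HF sections was thus spread over many spots.

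**Figure D1:**
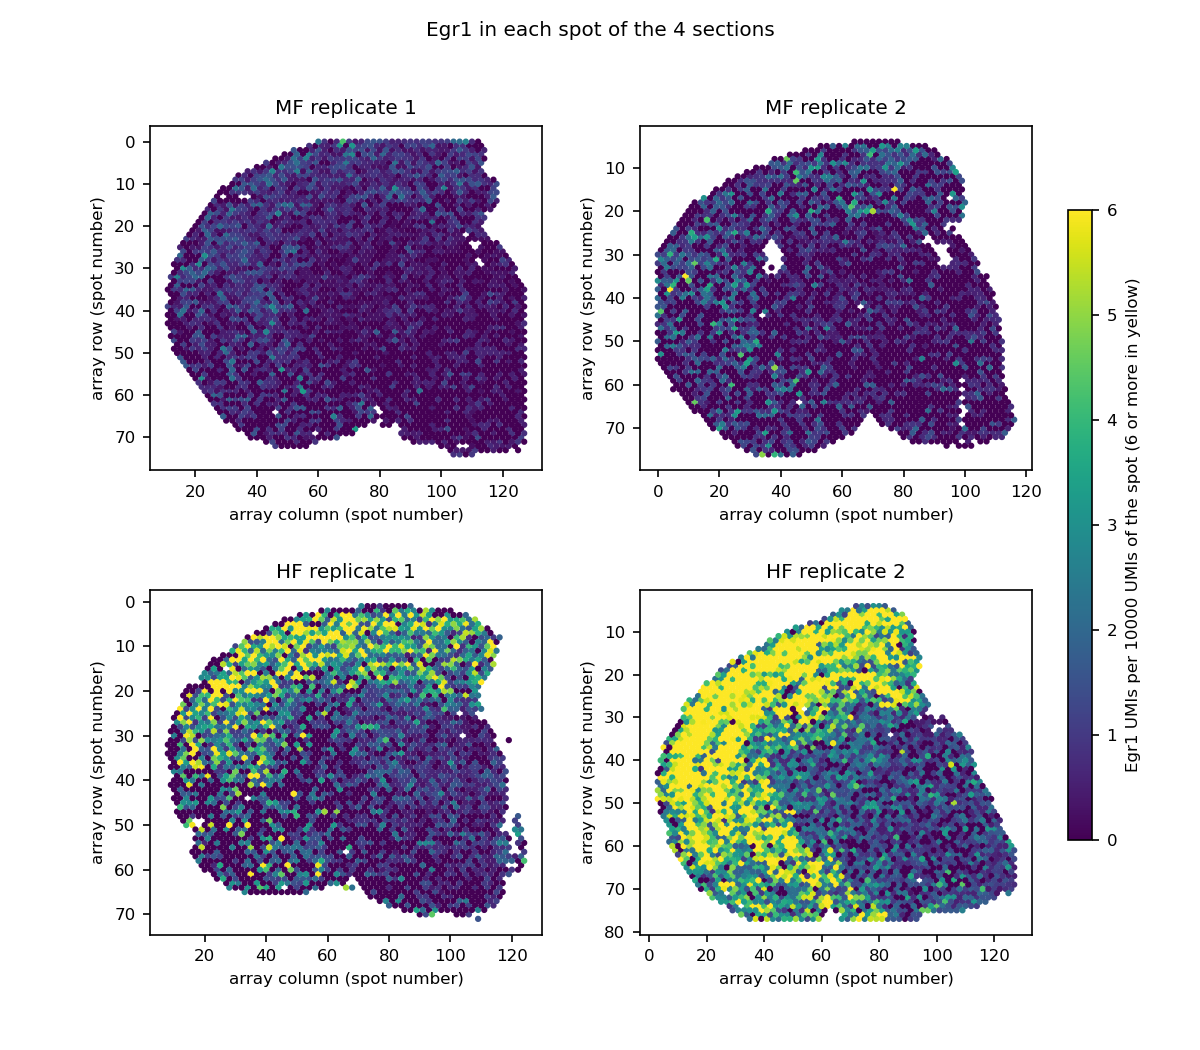
Egr1 in each spot, placed by array column and row, in the 4 sections. The colour is Egr1 UMIs per 10000 UMIs of the spot, and values of 6 or more share the last colour; 0% and 0.0905% of the MF spots and 4.72% and 18.6% of the HF spots reached it.

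Space Ranger's table of spatial autocorrelation gives Moran's I, a score that is near 0 when a gene's counts have no spatial order. For Egr1 it was 0.207 and 0.111 in MF and 0.347 and 0.512 in HF, and its rank among the features listed was 1046 and 1445 in MF and 188 and 51 in HF. Egr3 ranked 382 and 869 in MF and 760 and 825 in HF, with scores between 0.165 and 0.358. The score of Egr4 lay between 0.0912 and 0.197, and that of Egr2 between 0.0138 and 0.0300. The part of depth and level in these scores was not tested.

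To ask where in the brain the members were expressed, their levels were compared over the 22 areas. For Egr1, Egr3 and Egr4 alike, cortical spots led by Lamp5, Stard8 and Vip, layer 4 and the striatum were among the higher areas, and the relay thalamus, medial hypothalamus and medial habenula among the lower ones. Ordered by the mean over the sections on the log2 scale, Egr1 was highest in layer 4, with 97.5 and 117 CPM in the MF sections and 480 and 853 CPM in the HF sections. The medial habenula had 19.2 and 21.1 CPM in MF and 58.2 and 72.9 CPM in HF. Layer 4 was thus several times above the habenula in each section. Set against the mean of the other areas within sections, layer 4 was higher by 1.65 ± 0.08 (log2, SE) and the medial habenula lower, at -1.59 ± 0.14. Next to layer 4 came cortical spots led by Lamp5, Stard8 and Vip, genes of superficial cortex, which were below layer 4 by 0.17 ± 0.15 (log2, SD over 4 sections) and in 3 of the 4 sections. Single sections differed in the first place: it was held by layer 4 in both HF sections, by the Lamp5, Stard8 and Vip spots in MF replicate 1 and by the striatum in MF replicate 2. From the third area, cortical spots led by Tshz2, Lamp5 and Npnt, to layer 5 in sixth place, the differences between neighbours were smaller than their spread over sections. A step of 0.55 ± 0.06 separated layer 5 from the hippocampal neuropil, and a step of 0.45 ± 0.21 the dentate granule layer from white matter. Areas from white matter down to the medial habenula did not differ from their neighbours beyond the spread.

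Among the 22 areas, Egr3 was highest in the spots led by Lamp5, Stard8 and Vip in all 4 sections. These spots had 144 and 142 CPM in MF and 154 and 132 CPM in HF. They exceeded layer 4, the next area, by 0.63 ± 0.33 (log2, SD over 4 sections). In the medial hypothalamus, among the lowest areas, Egr3 had 10.5 to 14.5 CPM. Egr4 was likewise highest, among the 22 areas, in the spots led by Lamp5, Stard8 and Vip in all 4 sections. It had 63.2 and 65.1 CPM there in MF and 103 and 86.8 CPM in HF. Layer 5, striatum and layer 4 followed, and neither layer 5 and striatum nor striatum and layer 4 differed beyond their spread. Egr2 peaked in different areas from section to section, namely in the Lamp5, Stard8 and Vip spots of HF replicate 1, the striatum of MF replicate 2 and HF replicate 2, and a hypothalamic area of MF replicate 1. None of its 21 steps between neighbouring areas was larger than its spread.

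**Figure D2:**
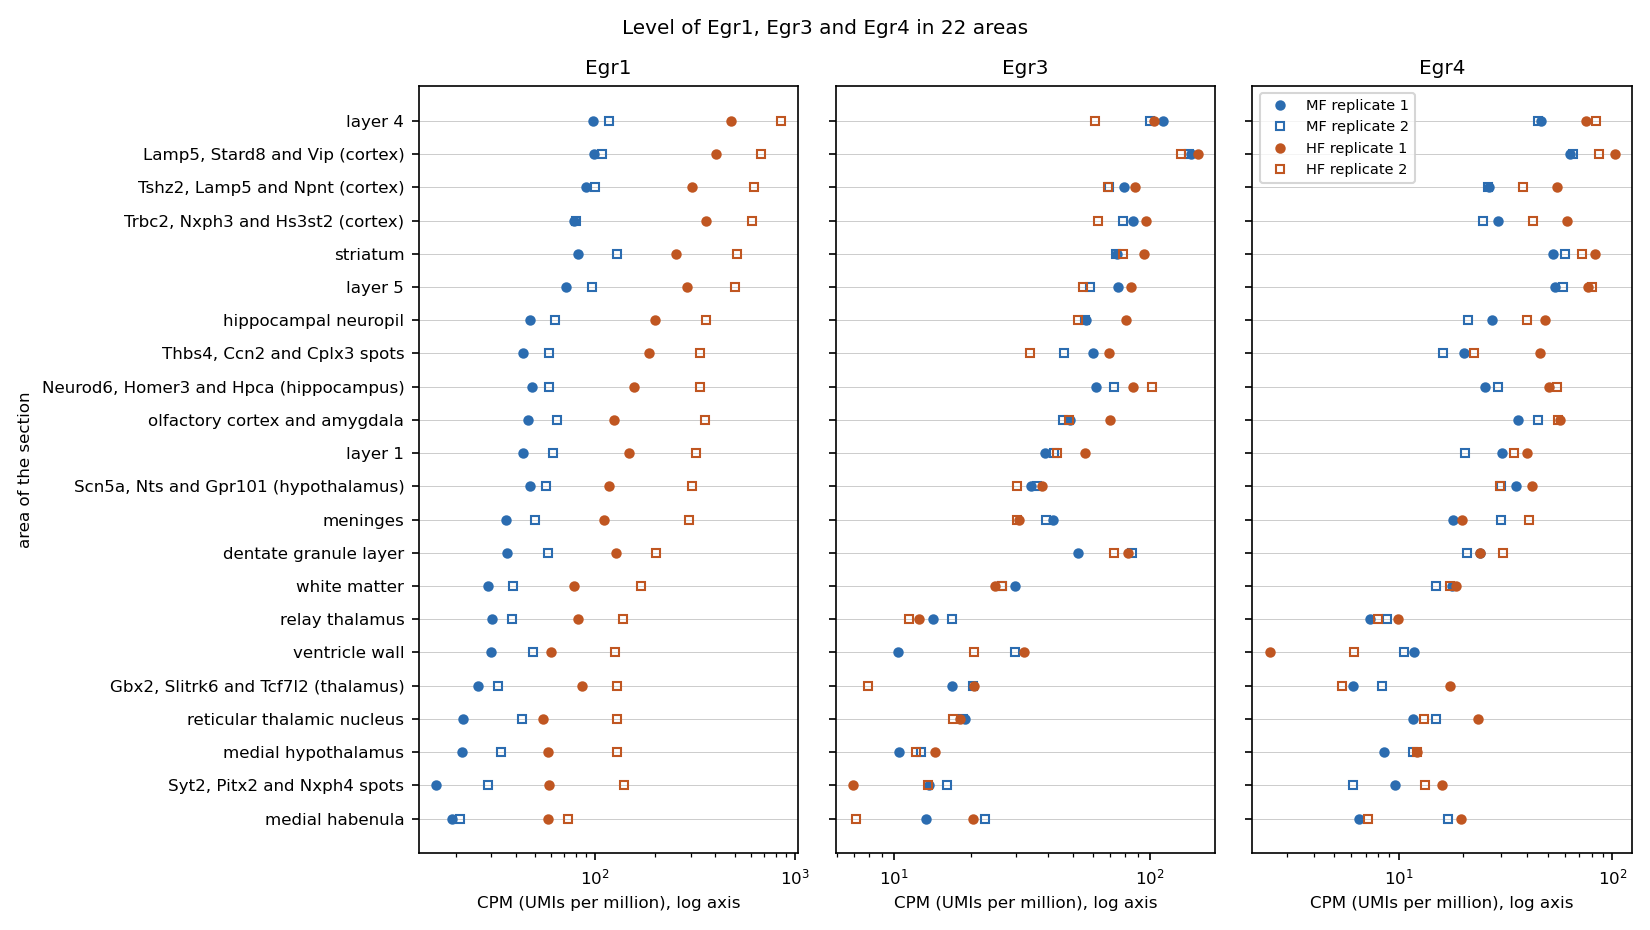
Level of Egr1, Egr3 and Egr4 in 22 areas, ordered by Egr1 and shown as CPM on a log axis, with 1 point per section (MF in blue, HF in orange, replicate 1 filled, replicate 2 open). The HF points of Egr1 lie to the right of the MF points in all 22 areas, and Egr3 falls from cortex to thalamus with MF and HF points mixed.

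All 4 members passed the F test over areas with section as a block (edgeR, adjusted p = 9.1e-53 for Egr1, 6.0e-13 for Egr2, 2.6e-55 for Egr3 and 3.7e-48 for Egr4). The fitted range between the highest and the lowest area was 3.09 for Egr1, 3.03 for Egr2, 3.74 for Egr3 and 3.37 for Egr4 on the log2 scale. Among all 12898 genes tested, 95.0% were called in the same way, so that passing this test does not set the members apart. With spots thinned to 5000 UMIs, Egr2 no longer passed the filter on low counts and was not tested.

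Over 5 regions, Egr3 fell most steeply between the hippocampus and the hypothalamus, by a log2 difference of 2.03 ± 0.23 (SD over 4 sections), while cortex, striatum and hippocampus did not differ from their neighbours beyond the spread. Egr1 dropped at the same place, by 1.17 ± 0.34. Egr4 was ordered as striatum, cortex, hippocampus, hypothalamus and thalamus, and each step was larger than its spread and had the same sign in 4 of 4 sections. The CA1 pyramidal layer held only 16 spots in HF replicate 1 and was left out of the F test. Its Egr1 level was 122 and 170 CPM in MF and 536 and 1128 CPM in HF, above that of layer 4 in every section. Egr3 there had 115, 117, 155 and 135 CPM, and Egr4 68.8, 64.4, 110 and 112 CPM, in MF replicates 1 and 2 and HF replicates 1 and 2. Set against the spots led by Lamp5, Stard8 and Vip, CA1 was higher for Egr4 in MF replicate 1 and both HF sections. For Egr3 it was slightly higher in both HF sections and lower in both MF sections. The choroid plexus, a non-neuronal tissue, held 9 to 12 spots per section, too few for the comparison of areas. Egr1 there had 27.8 and 16.5 CPM in MF and 77.6 and 95.7 CPM in HF, from 17, 4, 23 and 40 UMIs. Both HF sections were above both MF sections, an order also seen in 17.7% of the pairs of a tested gene and a compared area. Each spot holds RNA from several neighbouring cells, and which cells these few UMIs came from was not tested.

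As a description of likeness, levels of the members were correlated over the 88 sums of 22 areas in 4 sections, as log2(CPM + 1) centred within each section. Areas of a section share its library and depth, and no p-value is attached. Pearson's r was 0.88 between Egr1 and Egr3, 0.86 between Egr1 and Egr4 and 0.84 between Egr3 and Egr4. For Egr2, the member with the fewest counts, the values lay between 0.44 and 0.59. Among 12894 other genes, those most like Egr1 were Camkk2 (r = 0.92), which encodes a calcium/calmodulin-dependent kinase kinase, Fbxw7 (0.91), Kcnh3 (0.90), Homer1 (0.90), a postsynaptic scaffold gene with an activity-induced short form, and Plcb1 (0.90). Egr3 was most like Cnksr2 (0.95), Nrgn (0.94), which encodes the postsynaptic calmodulin-binding protein neurogranin, Synpo (0.94), Itpka (0.94) and Inka2 (0.94). Egr4 was most like Dlgap2 (0.91), Grasp (0.91), Plcb1 (0.89), Plk2 (0.88), an activity-induced kinase gene, and Akap5 (0.88). For Egr2 the list was Sema3a, Arpp19, Arhgap33, Ngef and Akap5, at 0.63 to 0.64. Akap5 and Plcb1 each stood on the lists of 2 members.

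For the question of the study, the members were set side by side in HF and MF within each region. In cortex, Egr1 had 82.2 and 94.4 CPM in the MF sections, and 342 and 609 CPM in the HF sections. Egr2 had 1.95 and 2.35 CPM in MF and 8.05 and 5.55 CPM in HF, from 50, 21, 62 and 64 UMIs. For Egr4 the MF sections had 42.5 and 42.1 CPM and the HF sections 70.6 and 64.2 CPM. Both HF sections were above both MF sections for these 3 members, and for 17.1% of the genes tested in cortex. Egr3 had 94.3 and 86.6 CPM in MF and 99.6 and 73.6 CPM in HF, and the groups overlapped. The HF section with more Egr1 was replicate 2, whereas Egr2, Egr3 and Egr4 were higher in HF replicate 1. The log2 difference of HF minus MF was 2.45 ± 0.19 (SE of the edgeR fit, n = 2 sections per diet) for Egr1, 1.68 ± 0.26 for Egr2, -0.07 ± 0.12 for Egr3 and 0.67 ± 0.10 for Egr4. This SE, used for all differences between the diets, draws on a spread shared between genes. It is not the spread of the 2 sections of a diet. Of the 4 members, 3 (Egr1, Egr2 and Egr4) passed the threshold of an adjusted p-value under 0.05 and a 1.2-fold change in edgeR, where 0.120% of the 13312 genes tested in cortex did (16 genes). Because the family was chosen by this contrast, nothing is read from either count. Both HF sections were above both MF sections for 17.4% of the genes tested in the hippocampus, 18.1% in the striatum, 20.3% in the thalamus and 19.5% in the hypothalamus, so that a lack of overlap alone is common with 2 sections per diet.

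**Figure D3:**
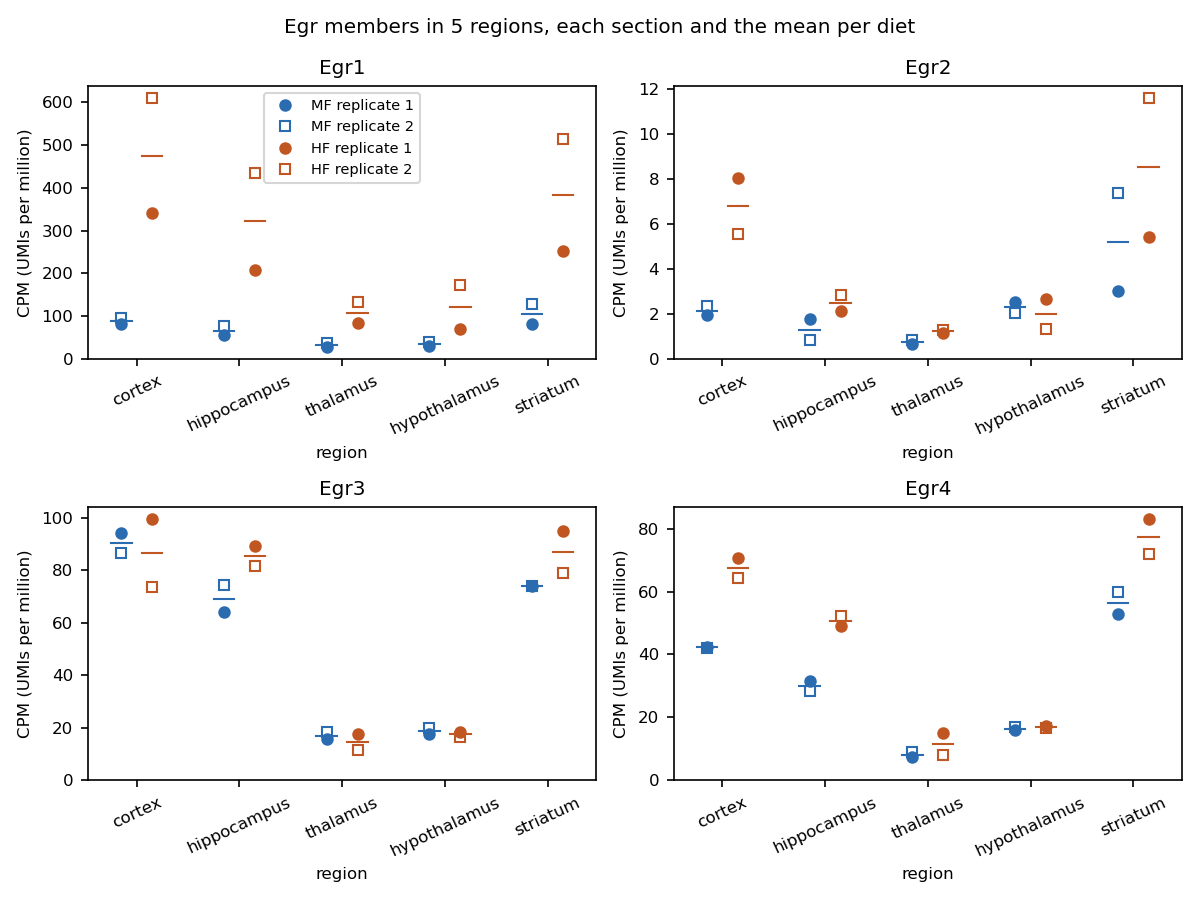
CPM of each member in 5 regions, with 1 point per section (MF in blue, HF in orange, replicate 1 filled, replicate 2 open) and a bar for the mean of the 2 sections of a diet. Egr1 is higher in both HF sections in every region, and Egr3 overlaps between the diets in cortex, thalamus and hypothalamus.

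In the hippocampus, Egr1 had 54.4 and 76.0 CPM in MF and 208 and 436 CPM in HF, a log2 difference of 2.36 ± 0.26. Egr4 had 31.4 and 28.3 CPM in MF and 49.0 and 52.1 CPM in HF. Its difference of 0.75 ± 0.13 had an adjusted p of 0.051 in edgeR, and whether it passed varied with the setting. Egr3 was also higher in both HF sections (89.3 and 81.7 CPM against 64.0 and 74.4 in MF), with a difference of 0.33 ± 0.11 that did not pass (edgeR adjusted p = 0.52). Egr2 had 15, 3, 7 and 13 UMIs in the 4 sections and was below the filter. Only Egr1 passed the threshold there, and 0.0887% of the 12403 genes tested did.

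In the striatum, Egr1 had 81.7 and 128 CPM in MF and 253 and 515 CPM in HF. The log2 difference was 2.02 ± 0.21 and passed in edgeR, where 0.0717% of the 11165 genes tested passed, and did not pass in DESeq2 (1.88, adjusted p = 0.999). Egr4 had 52.8 and 60.0 CPM in MF and 82.9 and 72.0 CPM in HF, and its difference of 0.45 ± 0.17 did not pass (edgeR adjusted p = 0.69). Egr3 was higher in both HF sections than in both MF sections, as were 18.1% of the genes tested there. Its difference of 0.19 ± 0.16 did not pass (edgeR adjusted p = 0.88). Egr2, counted 10, 9, 4 and 25 times, overlapped between the diets.

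In the thalamus Egr1 had 27.8 and 36.2 CPM in MF and 83.4 and 133 CPM in HF, and in the hypothalamus 29.4 and 40.1 CPM in MF and 70.0 and 172 CPM in HF. The differences of 1.75 ± 0.23 and 1.81 ± 0.38 did not pass in edgeR, where 0 genes were called in either region, although 795 genes in the thalamus and 835 in the hypothalamus had an unadjusted p under 0.05. DESeq2 called 5 of 13443 genes in the thalamus, Egr1 among them, and 4 of 13269 in the hypothalamus, with no member. The percent called by edgeR was 0 in both regions. Egr2 in the thalamus was higher in both HF sections, as were 20.3% of the genes tested there, with a log2 difference of 0.74 (edgeR adjusted p = 0.85). Egr4 in the thalamus overlapped between the diets, with a difference of 0.53 (edgeR adjusted p = 0.85). Egr4 in the hypothalamus lay between 15.9 and 17.2 CPM in all 4 sections, with a difference of 0.03 ± 0.16. In whole sections, 0 of 14971 genes were called by edgeR (1020 at an unadjusted p under 0.05), and DESeq2 called 22, including Egr1 and Egr4. The differences there were 2.21 ± 0.35 for Egr1, 1.02 ± 0.18 for Egr2, -0.02 ± 0.09 for Egr3 and 0.52 ± 0.08 for Egr4. In every comparison of 2 sections against 2, the smallest p an exact permutation test allows is 0.333. The edgeR p-values and SEs given here draw on a spread that edgeR shares between genes.

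Seen area by area, Egr1 was higher in both HF sections than in both MF sections in all 22 areas, and its log2 difference ranged from 1.33 ± 0.34 in the ventricle wall to 2.70 ± 0.17 in layer 4, with a median of 2.17. The median over all genes tested in an area lay between -0.0031 and 0.0051. Egr4 was apart in the same direction in 13 areas. Over all pairs of a tested gene and an area, 17.7% had both HF sections above both MF sections and 17.2% had both below, and nothing is read from the members' counts of areas, since areas of a section share its library. It was positive in each of the 21 areas where it was tested, from 0.08 ± 0.25 in white matter to 1.02 ± 0.27 in the hippocampal spots led by Neurod6, Homer3 and Hpca. In the ventricle wall, where Egr4 was counted 9, 5, 1 and 3 times and not tested, both HF sections were below both MF sections. Egr3 was positive in 9 of 22 areas, with HF above MF in 3 and below it in 5. Its difference was 0.57 ± 0.19 in the Neurod6, Homer3 and Hpca spots and -0.43 in layer 4 (SE 0.17) and in the meninges (SE 0.26). Egr2 passed the filter on low counts in only 5 areas and rested on few counts there, as in layer 4 with 8 and 1 UMIs in MF and 12 and 13 UMIs in HF, so no difference by area is given for it.

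**Figure D4:**
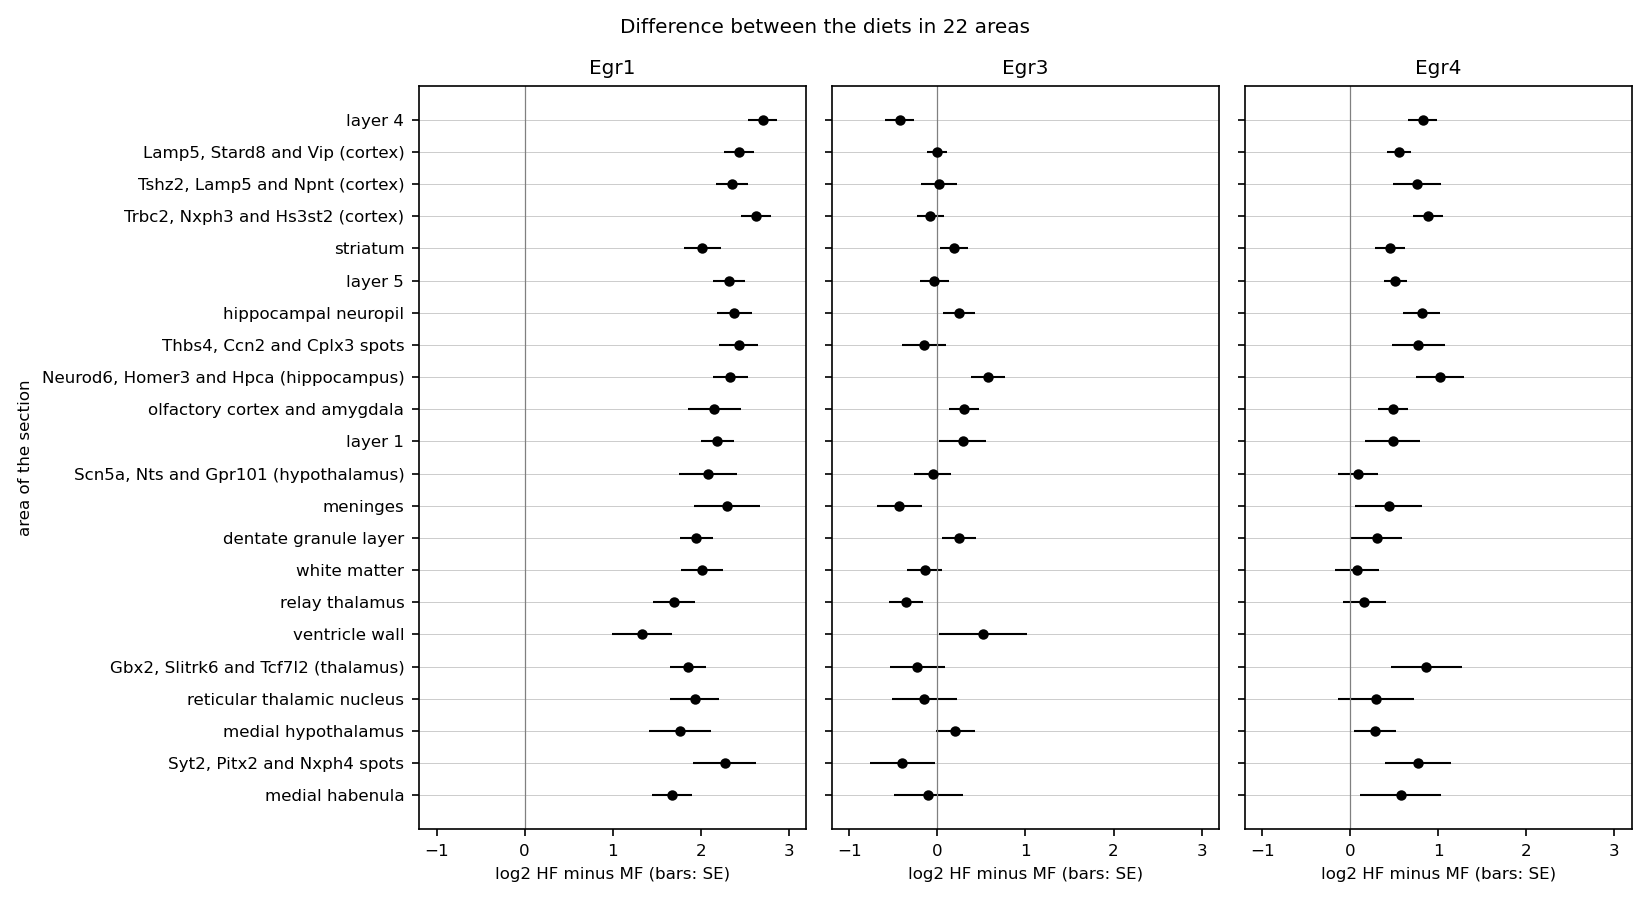
Log2 difference of HF minus MF for Egr1, Egr3 and Egr4 in 22 areas, with bars for the SE of the edgeR fit and 2 sections per diet. The Egr1 points lie between 1.33 and 2.70, those of Egr3 on both sides of 0, and those of Egr4 between 0.08 and 1.02 in the 21 areas where it was tested.

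Whether the difference between the diets varied between the 5 regions was asked in a model that held the sections as blocks. No member passed: the adjusted p was 0.14 for Egr1, 0.69 for Egr2, 0.65 for Egr3 and 0.77 for Egr4 in edgeR, where 0.0293% of 13636 genes passed. The unadjusted edgeR p was under 0.05 for all 4 members and for 799 of the 13636 genes. DESeq2 called 0 members (Egr1 had an adjusted p of 0.057) and 21 genes in all. Relative to cortex, the Egr1 difference was -0.11 in hippocampus, -0.50 in striatum, -0.64 in thalamus and -0.66 in hypothalamus on the log2 scale. Egr1 crossed the threshold without the filter on low counts, where 180 of 18771 genes did. It also did when spots were thinned (edgeR adjusted p = 0.010), where 4 of 12398 genes did. The call thus depends on these settings.

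Of the corepressors, Nab2 had 48.5 and 45.9 CPM in MF cortex and 52.6 and 53.5 CPM in HF cortex. The difference of 0.17 ± 0.09 did not pass (edgeR adjusted p = 0.70). Ddx20, whose product DP103 binds EGR factors, was at -0.02 ± 0.24. Nab1 is not analysed here. Among 11 transcription factors upstream of the EGR genes, 0 passed the threshold in cortex, with a median log2 difference of 0.11 against 0.00 over all genes tested. The largest was serum response factor, Srf, with 43.7 and 44.1 CPM in MF, 51.7 and 52.4 CPM in HF and a difference of 0.25 ± 0.09.

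Other immediate early transcription factors were tested for 20 of 22 genes in cortex, of which 4 were higher in HF and 0 were lower. Of the 20, 18 had a positive difference (median 0.35, against 0.0010 over all genes tested). Over all 13312 genes tested in cortex, 11 were called higher and 5 lower. The lists were chosen with earlier results of these data known, so nothing is read from their counts, here or below. Fos, a partner in the AP-1 factor, had 6.40 and 5.36 CPM in MF and 21.9 and 17.3 CPM in HF, a difference of 1.69 ± 0.17. Junb had 32.6 and 30.6 CPM in MF and 96.7 and 50.5 CPM in HF. The nuclear receptor genes Nr4a1 (0.98 ± 0.14) and Nr4a3 (0.96 ± 0.09) also passed. Nr4a3 passed in the hippocampus and in the striatum too. In contrast to Egr1, Fos, Junb and Nr4a1 were higher in HF replicate 1 than in HF replicate 2. Nr4a3 had the order of Egr1, with 69.2 CPM in HF replicate 1 and 73.6 CPM in HF replicate 2.

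Among 28 activity-induced effectors, 2 were higher in HF cortex and 0 lower, with a median of 0.27. Among all 13312 genes tested in cortex, 11 were higher and 5 lower. The 2 effectors called higher were Dusp6, which encodes a phosphatase that inactivates ERK, at 0.80 ± 0.11, and the clock gene Per1 at 0.61 ± 0.09. Arc, a synaptic gene and a described EGR target, had 56.8 and 49.2 CPM in MF and 206 and 88.1 CPM in HF. Its difference of 1.45 ± 0.26 missed the threshold in cortex (edgeR adjusted p = 0.052) and passed in the hippocampus (0.75 ± 0.13, edgeR adjusted p = 0.048). In the list of described EGR targets, Arc was the gene that passed in the hippocampus, of 10 tested, and 0 of 12 passed in cortex (median 0.12). Of 14 clock genes, 3 were higher in HF cortex and 0 lower (median 0.13): Per1, Per2 (0.68 ± 0.11) and Bhlhe40 (0.60 ± 0.09).

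**Figure D5:**
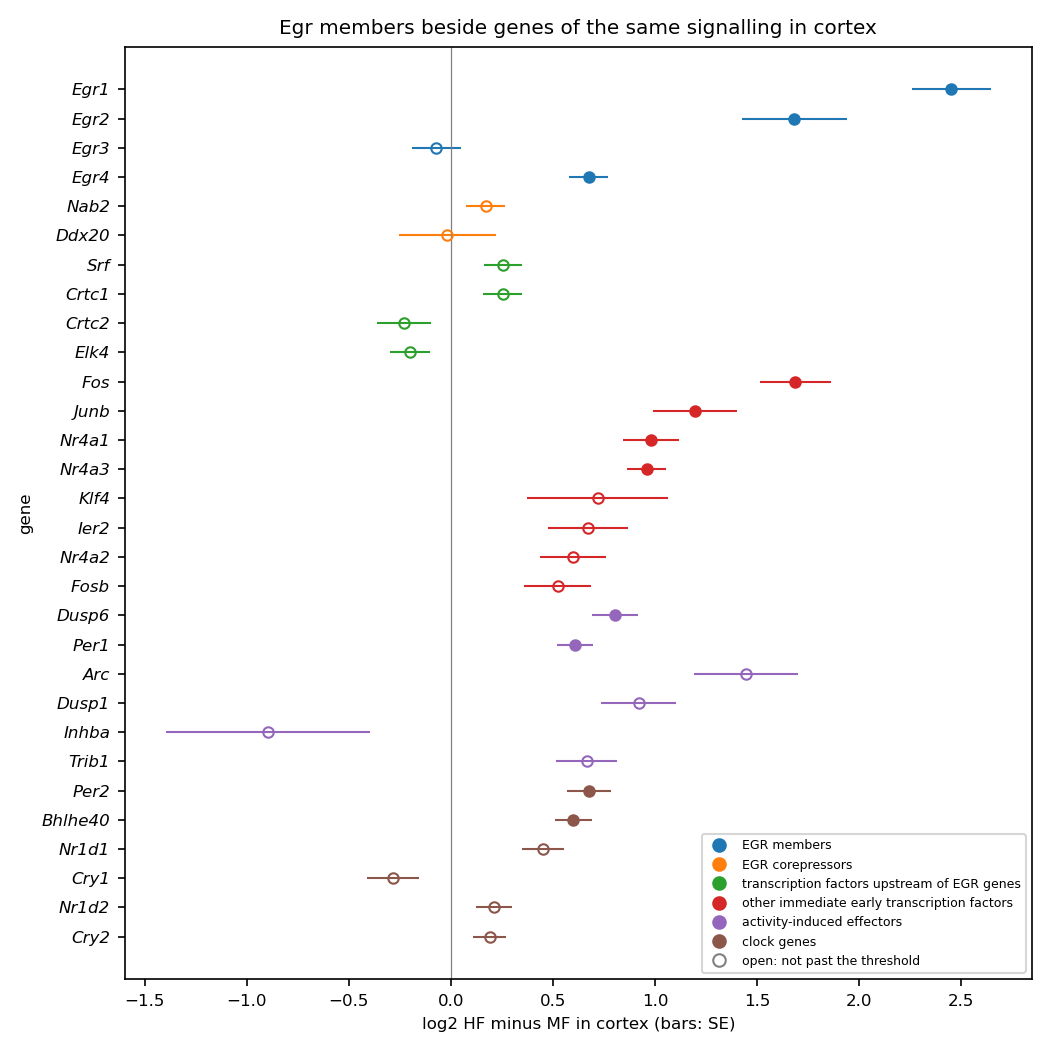
Log2 difference of HF minus MF in cortex for the EGR members and genes of 5 lists, with bars for the SE of the edgeR fit and 2 sections per diet. Filled points passed the threshold and open points did not; Egr1 lies at 2.45, Fos at 1.69 and Egr3 at -0.07.

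Cell type markers were read in the same sums. In cortex, excitatory neuron markers summed to 4575 and 4388 CPM in MF and 4596 and 4818 CPM in HF, and 0 of 7 passed the threshold. Inhibitory neuron markers were at 1168 and 1214 CPM in MF and 1260 and 1193 CPM in HF. Oligodendrocyte markers were lower in HF, with 12999 and 13050 CPM in MF against 10800 and 9804 CPM in HF in cortex, and 15821 and 14480 CPM against 10887 and 10183 CPM in the hippocampus. Of 10 such markers, all 10 had a negative difference in both regions, and 1 passed the threshold in cortex (Mal, at -0.46 ± 0.07) and 3 in the hippocampus. Over all genes tested, 5 of 13312 were called lower in cortex and 8 of 12403 in the hippocampus. Astrocyte markers summed to 3314 and 3386 CPM in MF cortex and 3454 and 3027 CPM in HF cortex. That sum is mostly Slc1a2, a glutamate transporter gene with 2241 and 2283 CPM in MF and 2467 and 2041 CPM in HF. Of the 7 astrocyte markers, 1 had a positive difference and 0 passed, with a median log2 difference of -0.14. Gfap and Aqp4 (named, like Slc1a2, after their values were seen) were at -0.43 ± 0.09 and -0.47 ± 0.12 and did not pass (edgeR adjusted p = 0.17 and 0.27). Microglial markers summed to 364 and 381 CPM in MF and 360 and 311 CPM in HF, with 1 of 7 positive and a median of -0.14, and endothelial markers to between 209 and 265 CPM in the 4 sections. Hemoglobin and other blood genes separated by replicate number and not by diet, with 2202 and 2028 CPM in the replicates numbered 1 and 1277 and 1212 CPM in those numbered 2. No marker of these lists was at 0 in cortex. The part of glial markers, section plane and depth in the members' differences was not tested.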

How the data were processed

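Visium-FFPE reads were assigned to probes by the authors using Space Ranger 2.0.0 per the file headers, with build mm10, and the authors deposited raw UMI counts per spot together with Moran's I, a score for spatial order. The authors' p-values of that score were not used. Spots under 500 UMIs or 250 genes were removed (18 of 13470). Spots were clustered here with leidenalg 0.10.2 (2000 variable genes scaled within sections, 30 principal components, 20 neighbours, resolution 1), leaving out 78 genes (the members and other listed genes). Clusters were named from markers, with at least 3 among 50 leading genes; of 26 clusters 24 were placed. The others carry their leading genes. Spots are regions of tissue, so names describe marker profiles.

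UMIs were summed per section and area and tested over all genes with edgeR 4.0.16 (R 4.3.3; TMM, filterByExpr, quasi-likelihood). Calls needed a Benjamini-Hochberg adjusted p under 0.05 and a 1.2-fold change. Alternatives were DESeq2 1.42.0, no filter, library size alone, spots thinned to 5000 UMIs, resolution 0.5, areas by marker score, a replicate block and each section left out. The members and lists were chosen with earlier results of these data known. Named genes are the members, Nab1 and Nab2, the 5 genes most like each member, and, per list, those that passed plus up to 4 with the largest difference in cortex, of which some are given only in the plot. A list of signalling genes is not reported here.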

Additional observations from a re-analysis of the deposited data

How the results depend on the processing

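The number of members past the threshold in cortex was 3 in every other setting that kept all 4 sections. Over all genes, the cortex calls in these settings ran from 11 of 13301 (marker score areas) to 131 of 17763 (no filter). A fit with a section left out holds only 1 section of a diet, so its count of diet calls is not given here. Over areas it was 4 in every setting but thinning, with 3. For whole sections the count of 0 became 2 with DESeq2, which called 22 genes in all, and 1 without the filter on low counts, which called 5. For the hippocampus the count of 1 became 2 without the filter, at resolution 0.5 and with marker score areas. Over all genes, 23 of 12393 were called there at resolution 0.5 and 37 of 12512 with marker score areas. For the thalamus the count of 0 became 1 with DESeq2, without the filter and with thinning, where 1 of 12077 genes was called. For the hypothalamus the count became 1 without the filter. Without the filter, 110 genes were called in the hippocampus, 30 in the thalamus and 107 in the hypothalamus. For the striatum the count of 1 became 0 with DESeq2. Region by diet terms went from 0 to 1 without the filter and with thinning. Leaving out HF replicate 2 lowered the Egr1 difference to 1.53 in whole sections, 1.98 in cortex, 1.72 in hippocampus and 1.38 in striatum; the lowest value in the hypothalamus was 1.02. The cause of these changes was not tested. With the sections paired by replicate number as a block, the count was 2 in the hippocampus and 1 in the thalamus and hypothalamus. Over all genes, this fit called 32 of 12403 in the hippocampus, 31 of 13443 in the thalamus and 1 of 13269 in the hypothalamus. The blocked fit changed no other count of members. The replicate numbers do not pair the sections by any label, and the differences between replicates 1 and 2 correlated at -0.21 between the diets over 13553 genes. The pairing was also crossed, a block chosen after seeing the data. The counts were then 1 for whole sections, 2 for the hippocampus and 1 for the thalamus. Over all genes, the crossed fit called 11 of 14971, 25 of 12403 and 52 of 13443 in the same order. Differences that changed sign were all small. With thinned spots Egr3 went to 0.097 in whole sections, 0.019 in cortex, 0.038 in the thalamus and 0.013 in the hypothalamus, and with marker score areas Egr3 went to 0.057 and Egr2 to 0.0083 in the hypothalamus. Over left-out sections Egr3 ranged from -0.11 (without MF replicate 2) to 0.078 (without MF replicate 1) in whole sections, from -0.29 (without HF replicate 1) to 0.14 (without HF replicate 2) in cortex and from -0.57 to 0.062 (without HF replicates 1 and 2 in turn) in the thalamus. In the hypothalamus Egr2 ranged from -0.79 to 0.17 (without HF replicates 1 and 2 in turn) and Egr4 from -0.015 to 0.075 (without MF replicates 1 and 2 in turn). Egr2 is limited by depth, with 82 to 145 UMIs per section.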
